A study of Mus musculus with 6 samples.

Results

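The expression of 9 genes of the extracellular matrix was followed in branchial arch 1 of mouse embryos. They encode matricellular proteins (Tnc, Postn, Sparc, Sparcl1, Thbs1, Thbs2 and Comp) and 2 large matrix components that work beside them (Fn1 and Vcan). They were matched by gene symbol to the probe sets of the array, and 23 of 45101 probe sets carried exactly 1 of these symbols, so that the 9 genes stand among 18194 genes with such a probe set. Where a gene had several probe sets, the gene-level probe set was selected on its mean signal over the 6 arrays, the highest being taken, and the others are given beside it. The members were chosen by family, with earlier results of the same contrast known. Their changes and adjusted p-values are therefore a description taken from the fit over all genes, and support nothing on their own.

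Matricellular proteins are secreted into the matrix, where they act less as scaffold than as regulators of cell adhesion, of growth factor activity and of collagen fibril assembly. Many are strongly expressed by embryonic mesenchyme and at sites of tissue remodelling, and most signal through integrins or related receptors. The first branchial arch forms the jaws. Its mesenchyme comes largely from the neural crest, and its muscle cells come from mesoderm.

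The arches were taken at embryonic day 11.5, with 1 arch per embryo and 1 array per arch. All 6 embryos carried the Ezh2lox/lox genotype, a conditional form of the gene for the catalytic subunit of Polycomb repressive complex 2. The labels of the 3 labelled-control embryos name nothing further. Those of the 3 labelled-mutant embryos also name Wnt1Cre, a recombinase under a promoter active in the neural crest lineage. Within the arch the crest-derived cells are thus targeted, while skeletal muscle, endothelial, blood and epithelial cells are not. The question asked by the design is which genes of the arch depend on Ezh2 in the crest. Changes are log2 differences, labelled mutant minus labelled control, with n = 3 arrays in each group. Precision is limited by this number of arrays.

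The labels could not be checked by the targeted gene. Ezh2 read 11.63 ± 0.15 (SD) in the labelled-control arches against 11.66 ± 0.01 in the others, and the place of its probe set relative to the deleted part is not given in the sources used here. All 4 sex-linked genes measured split the arrays by label, with Xist higher by 7.42 and the Y-linked gene Kdm5d changed by -6.23 in the labelled-mutant arches. Sex and genotype label therefore cannot be told apart in any value below. Hox genes, which are silent in the normal first arch and are classical Polycomb targets, were high in the arches labelled control. Each of the 6 Hox genes examined was lower in the labelled-mutant arches without overlap, from Hoxa2 (-3.09) to Hoxa9 (-7.07). Hoxa9 read 11.28 ± 0.37 in the labelled-control against 4.21 ± 0.36 in the labelled-mutant arches. Whether the labels are exchanged was not settled here. All directions below rest on the labels as deposited, and would turn if they were exchanged. The arch mesenchyme markers were present on each array, with none of the 9 measured below the 25th percentile of signal (4.33) on all arrays. In such bulk tissue, fewer cells of a type and less RNA per cell cannot be told apart.

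Short stretches upstream of the start of transcription are shown for the 4 members that fell and for Vcan, which did not pass the threshold, because the start regions differ in kind. RefSeq promoter windows of the mouse assembly GRCm38.p6 were held for 5 of the 9 members. Each stretch runs 5′ to 3′ along the gene's strand from 40 to 11 bases before a start, and capitals mark a TATA-like match to TATANAA. Tnc and Postn have 2 annotated starts each in that table, and the start with the match is shown.
Tnc (chr4:64046947-64046976, minus strand): aaggagctcccTATATAAgcctgccaaagc
Postn (chr3:54361067-54361096, plus strand): acagcccagagcTATATAAactcagctctc
Sparc (chr11:55420091-55420120, minus strand): ctcatgtctgtttaggcaggagccccagaa
Thbs2 (chr17:14694273-14694302, minus strand): tggaaagcctgggtggacctgtaggagggg
Vcan (chr13:89742523-89742552, minus strand): gtccctaccgcaggctgagggagctccttt
The match lies 29 bases before the start in Tnc and 28 bases before it in Postn. Over the 250 bases before each start, 6.59% of 32841 promoter windows hold TATANAA on the gene's strand and 10.4% on either strand. The stretches of Sparc, Thbs2 and Vcan hold none, and neither do their 250-base windows on either strand. The AP-1 motif TGANTCA, which reads the same on both strands, was in none of the 7 member windows and in 6.75% of all windows. The 250-base windows of Thbs2 and Vcan hold CCAAT, as do 33.9% of all windows on either strand. A match describes the letters only, and its use in the arch was not measured.

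Under the mutant label, 4 of the 9 genes were lower and 0 were higher. Tnc and Postn showed the larger falls, of 4.69-fold and 2.73-fold, and Thbs2 and Sparc fell by smaller amounts, 1.67-fold and 1.63-fold. Sparcl1, Thbs1, Comp, Fn1 and Vcan did not pass. Over all genes tested, 4.30% were lower and 1.23% higher by the same rule, which is limma's moderated test with a Benjamini-Hochberg adjusted p under 0.05. The median change was -0.33 over the 9 members and 0.02 over all genes. All 9 changes were negative, but for Comp, Thbs1 and Vcan they were smaller than the standard error. In 5 of the 9 genes the 3 arrays of one label did not overlap those of the other, against 24.9% of all genes (11.9% with the labelled-mutant arrays lower). Since the same contrast was known when the members were picked, nothing is read from these counts.

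**Figure D1:**
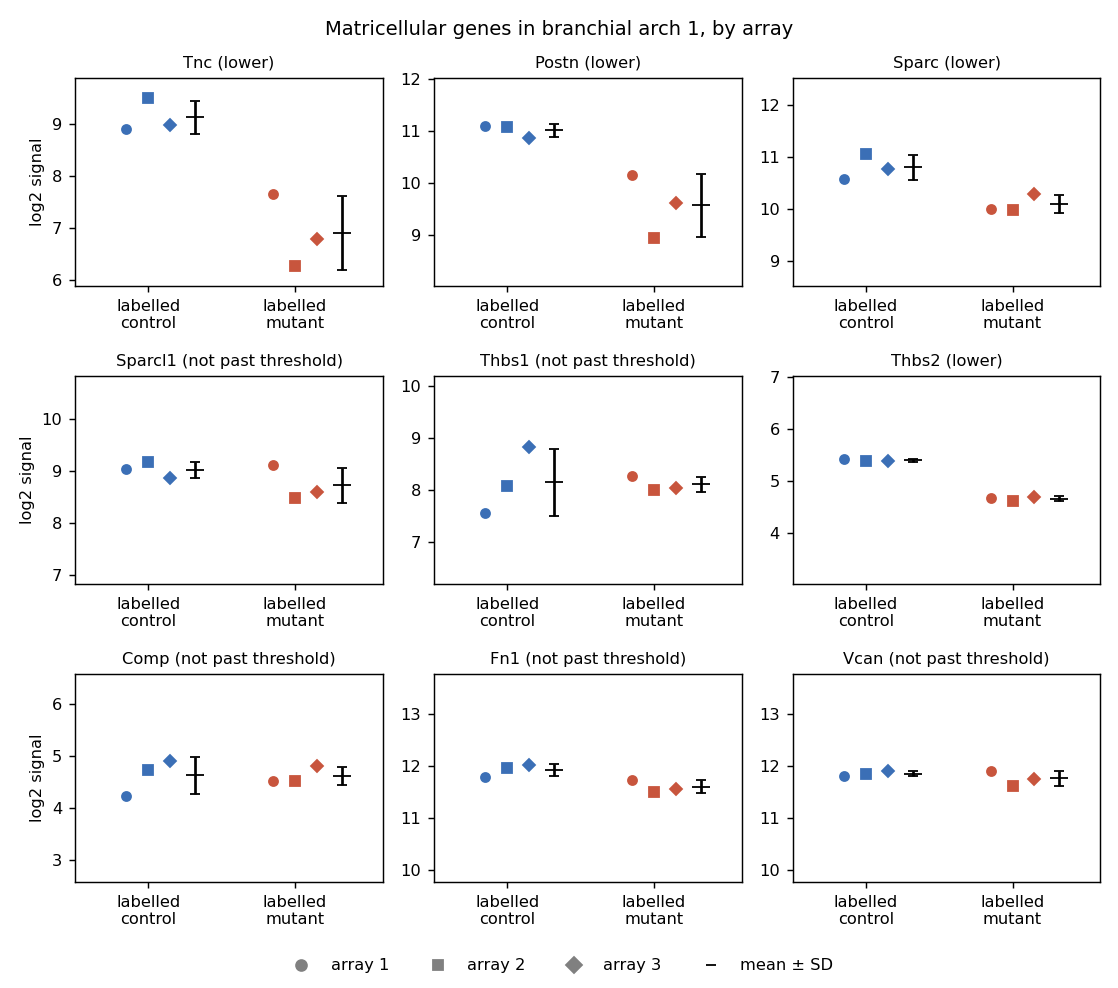
Log2 signal of the gene-level probe set of each of the 9 genes on the 3 labelled-control (blue) and 3 labelled-mutant (red) arrays. Symbols mark the array number, black bars are mean ± SD, and each panel spans 4 log2 units. In Tnc, Postn, Sparc and Thbs2 the groups do not overlap, in Fn1 they separate narrowly, and in the other 4 they overlap.

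Tenascin-C (Tnc) is a large multi-armed glycoprotein that loosens the attachment of cells to fibronectin and is found in the embryo around condensing mesenchyme, tendon and migrating crest cells. Its gene-level probe set read 8.91, 9.51 and 8.98 on the labelled-control arrays and 7.66, 6.27 and 6.79 on the labelled-mutant arrays. The highest labelled-mutant array, number 1, stayed 1.25 below the lowest labelled-control array. The change was -2.23 with a standard error of 0.31 and a 95% interval from -2.95 to -1.51 (limma, adjusted p = 0.00523), which was the 45th lowest of 18194 changes. The second probe set, much dimmer, gave -2.27 with a standard error of 0.25 (limma over all probe sets, adjusted p = 0.00528). It read 5.54, 6.32 and 5.89 against 4.12, 3.25 and 3.58, so that its labelled-mutant values lay below the 25th percentile, near the bottom of the scale. Both probe sets were read on the same RNA samples. The gene-level call held without each array in turn. That call was lost when signals under the 20th percentile of an array were raised to this percentile (adjusted p = 0.0831 with limma). The floor left the values of the gene-level probe set as they were, and the standard error of its change rose to 0.42. With the floor the second probe set lost its call too, at a change of -1.82 (limma over all probe sets, adjusted p = 0.074).

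Periostin (Postn) is a fasciclin-domain protein of collagen-rich mesenchyme, periosteum and tooth-supporting ligament that binds tenascin-C, collagen I and integrins. It has 1 probe set on the array, which read 11.09, 11.07 and 10.87 on the labelled-control and 10.15, 8.93 and 9.61 on the labelled-mutant arrays. The labelled-control values lay close together, and the labelled-mutant values spread over more than 1 log2 unit without reaching them. The change was -1.45 with a standard error of 0.26 and a 95% interval from -2.03 to -0.86 (limma, adjusted p = 0.0136). The call was lost without labelled-control array 1 (limma, adjusted p = 0.0531), without labelled-control array 2 (0.0679) or without labelled-mutant array 3 (0.0551), at changes of -1.41, -1.42 and -1.47. With floored signals the adjusted p was 0.115 at the same change.

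Thrombospondin-2 (Thbs2), a trimeric thrombospondin known for restraining vessel growth and shaping collagen fibrils, had the tightest separation of the 9 relative to its spread. Its gene-level probe set read 5.42, 5.39 and 5.37 on the labelled-control and 4.67, 4.61 and 4.69 on the labelled-mutant arrays, with SDs of 0.02 and 0.04. The groups lay 0.69 apart at their nearest values. The change was -0.74 with a standard error of 0.07 and a 95% interval from -0.90 to -0.58 (limma, adjusted p = 0.000753). The other 2 probe sets gave -0.79 and -0.96 (limma over all probe sets, adjusted p = 0.00886 and 0.0145). All 3 read below the array median of 5.81 in each group. The gene-level call held under each alternative tried.

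Sparc (osteonectin) is a calcium- and collagen-binding glycoprotein needed for normal collagen fibril assembly. Its gene-level probe set read 10.58, 11.06 and 10.77 on the labelled-control and 10.01, 9.98 and 10.30 on the labelled-mutant arrays. The groups did not overlap, with 0.28 between their nearest values. The change was -0.71 with a standard error of 0.14 and a 95% interval from -1.02 to -0.40 (limma, adjusted p = 0.0205). A second probe set gave -0.75 (limma over all probe sets, adjusted p = 0.0224). The third, at a mean of 5.91 in the labelled-control arches, gave 0.13 with a 95% interval from -0.07 to 0.33, so that the 3 probe sets of Sparc disagree. The gene-level call was lost without labelled-control array 2 (change -0.58, limma adjusted p = 0.0622), labelled-mutant array 1 (-0.66, 0.0667) or labelled-mutant array 2 (-0.65, 0.0907), and with floored signals (0.112). In the fit over all 45101 probe sets the same probe set had an adjusted p of 0.0515 with limma.

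The closest relatives of these proteins did not pass. Sparcl1 (hevin), the Sparc-like protein best known from synapses and vessels, read 9.03, 9.17 and 8.86 on the labelled-control and 9.10, 8.47 and 8.59 on the labelled-mutant arrays. Labelled-mutant array 1 lay among the labelled-control values and the other 2 lay below them. The change was -0.30 with a 95% interval from -0.67 to 0.07 (limma, adjusted p = 0.373), and it was -0.49 (0.0588) without labelled-mutant array 1.

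Thrombospondin-1 (Thbs1), which can release TGF-beta from its latent complex and binds Cd36 and Cd47, varied more among the labelled-control arrays than between groups. Its gene-level probe set read 7.54, 8.07 and 8.82 on the labelled-control arrays against 8.27, 8.002 and 8.04 on the labelled-mutant arrays. The labelled-control arrays thus lay both below and above all labelled-mutant arrays. The change was -0.04 with a 95% interval from -0.66 to 0.58 (limma, adjusted p = 0.959), and the second probe set gave -0.28 with an interval from -0.69 to 0.13. Without labelled-control array 1 or 3 the gene-level change was -0.34 or 0.30, so that its sign is open to 1 array. A further probe set carries the symbols of both Pald1 and Thbs1 and was not counted, at a change of -0.09.

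Comp, the pentameric thrombospondin of cartilage and tendon, read 4.24, 4.73 and 4.91 on the labelled-control and 4.51, 4.52 and 4.81 on the labelled-mutant arrays. These values lie near the 25th percentile of the array, and the groups overlap. The change was -0.01 with a 95% interval from -0.39 to 0.37 (limma, adjusted p = 0.979).

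The 2 large matrix components did not pass. Fibronectin (Fn1), the integrin-binding scaffold on which crest cells migrate, read 11.80, 11.96 and 12.03 on the labelled-control and 11.74, 11.51 and 11.56 on the labelled-mutant arrays. The groups did not overlap, but by only 0.06. The change was -0.33 with a 95% interval from -0.54 to -0.11, and it missed the threshold after adjustment (limma, adjusted p = 0.0999; over all alternatives 0.0534 to 0.332). Its second probe set gave -0.30 with a wider interval, from -0.84 to 0.24.

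Versican (Vcan) is the hyaluronan-binding chondroitin sulfate proteoglycan that fills the matrix of loose embryonic mesenchyme. It read 11.80, 11.84 and 11.90 on the labelled-control and 11.91, 11.62 and 11.75 on the labelled-mutant arrays, with the groups overlapping. The change was -0.09 with a 95% interval from -0.29 to 0.12 (limma, adjusted p = 0.677), which leaves out a fall of the size seen for Thbs2, Sparc, Postn or Tnc. Vcan has 8 probe sets. The next 2 by brightness gave -0.04 and 0.16, and the 5 others lay below the 25th percentile on all 6 arrays, so that they carry little signal. None of the 8 passed.

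Across all 23 probe sets of the 9 genes, 7 were lower and 0 higher by the fit over all probe sets, in which 1.77% of 45101 were lower and 0.368% higher. They are both of Tnc, the one of Postn, 1 of the 3 of Sparc and all 3 of Thbs2. In 11 of the 23 the groups did not overlap, against 20.4% of all probe sets. The 5 dim probe sets of Vcan are among the 16 that did not pass.

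**Figure D2:**
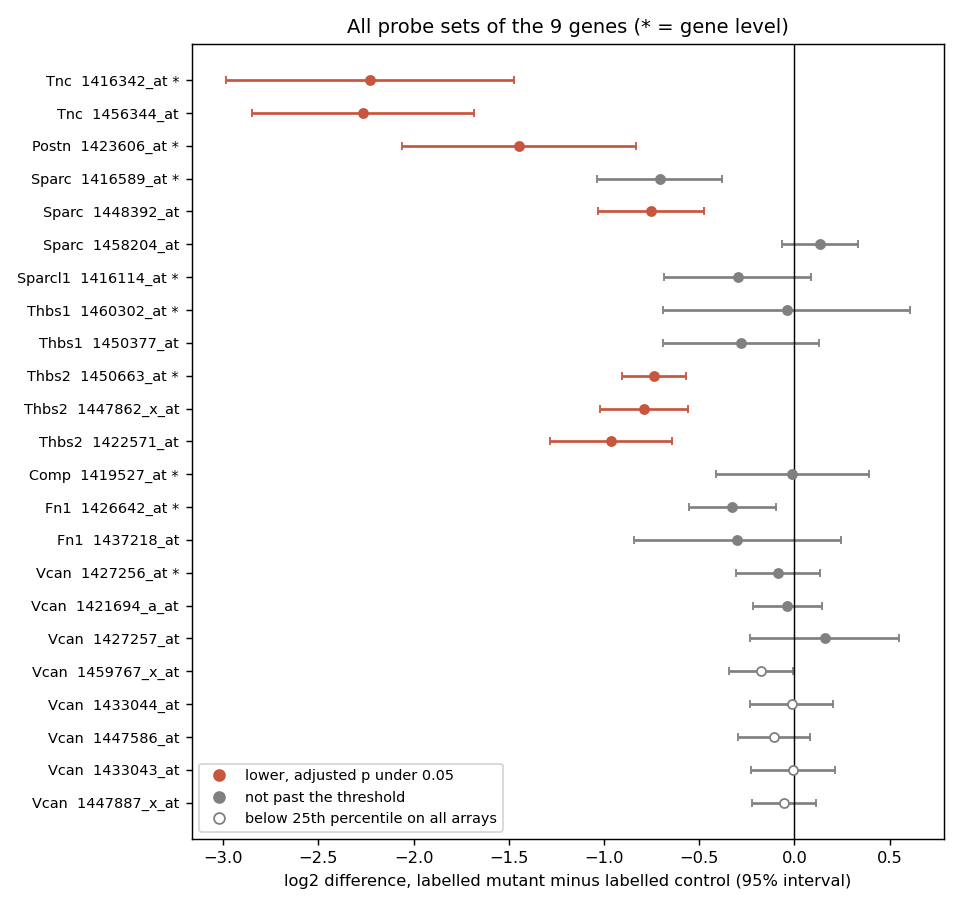
Log2 difference (labelled mutant minus labelled control) of all 23 probe sets of the 9 genes with 95% intervals from limma over all 45101 probe sets. Red points passed the threshold in that fit, grey points did not, open points lay below the 25th percentile on all 6 arrays, and a star marks the gene-level probe set. The 3 probe sets of Thbs2 and both of Tnc agree in direction, and 1 of the 3 of Sparc lies right of 0.

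The 3 labelled-mutant arrays did not fall alike for Tnc and Postn. Relative to the labelled-control mean, Tnc differed by -1.47 on array 1, -2.87 on array 2 and -2.35 on array 3. Postn differed by -0.86, -2.08 and -1.40 on the same arrays, in the same order. Array 1 thus stood nearest to the labelled-control arches for both genes, whereas the 3 arrays of Thbs2 differed from the control mean by -0.72, -0.79 and -0.71.

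Sparc differed by -0.79, -0.82 and -0.50, with array 3 nearest to the control mean. Array 1 was the highest of the 3 labelled-mutant arrays for 6 of the 9 members, and array 2 was the highest for 0. Over all genes array 1 was the highest for 43.3%, and over the 783 genes called lower it was the highest for 64.4%. The order from array 1 through array 3 to array 2, which Tnc and Postn show, was that of 38.6% of the genes called lower and 22.8% of all genes. Sparcl1, Thbs1, Fn1 and Vcan, which did not pass, show it too.

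Markers of other cell types also differed between the labels, some in the array order of Tnc and Postn and some not. The 9 skeletal muscle markers were all measured, and 3 were lower (Myog, Myod1 and Actc1). Myod1 and Actc1 lay close to the threshold (limma, adjusted p = 0.0455 and 0.0494). Of the 9 changes 8 were negative, and that of Des was 0.14. The log2 of the markers' summed signal ran from 10.81 to 11.37 under the control label and from 9.61 to 10.59 under the mutant label. Against the control mean this sum differed by -0.56, -1.54 and -1.17 on labelled-mutant arrays 1, 2 and 3, the order seen for Tnc and Postn. The glia, macrophage, erythroid and endothelial sums showed the same order at smaller differences. The erythroid sum differed by -0.08, -0.20 and -0.13 and the endothelial sum by 0.03, -0.07 and 0.002. The order alone was thus not particular to muscle. The part of these markers in the falls was not tested.

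Summed neuron markers ran from 11.64 to 11.88 in the labelled-control against 10.86 to 11.20 in the labelled-mutant arches, with 5 of 8 lower. Against the control mean the neuron sum differed by -0.84, -0.86 and -0.52 on labelled-mutant arrays 1, 2 and 3, with array 3 nearest. For glia the ranges were 9.55 to 10.29 against 9.17 to 9.43, with 1 of 5 lower, and for macrophages 10.15 to 10.64 against 9.93 to 10.25, with 1 of 8 lower. On labelled-mutant arrays 1, 2 and 3 the glia sum differed from the control mean by -0.42, -0.68 and -0.57. The macrophage sum differed by -0.12, -0.45 and -0.36 on the same arrays. None of the 9 muscle, 8 neuron, 5 glia or 8 macrophage markers measured was below the 25th percentile on all arrays. These lists too were not tested as a part of the members' falls.

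Smooth muscle and pericyte markers ran from 12.34 to 12.54 against 12.19 to 12.24, with 1 of 10 lower and Cnn1 below the 25th percentile throughout. Their sum differed from the control mean by -0.22, -0.26 and -0.21 on arrays 1, 2 and 3. Endothelial markers had 0 of 8 past the threshold, with sums of 10.80 to 11.14 against 10.93 to 11.03. Epithelial markers ran from 12.15 to 12.81 against 12.41 to 12.46, with 1 of 10 higher. Erythroid markers ran from 15.74 to 15.99 against 15.66 to 15.79, with 1 of 6 lower. Arch mesenchyme markers had 4 of 9 higher and 1 lower, and their sums ran from 14.22 to 14.34 against 14.31 to 14.41. The 4 were the transcription factor genes Dlx5 (1.18), Msx1 (1.15), Dlx6 (1.002) and Hand2 (0.51). Pdgfra, the growth factor receptor of crest mesenchyme, fell by 0.63. The summed cartilage and bone markers ran higher, from 11.49 to 12.26 against 12.45 to 12.70, with 1 of 7 past the threshold, Col2a1 (0.50). The brightest, Col9a1, had a change of 0.71 and did not pass (limma, adjusted p = 0.119). Alpl, at -0.33, was the 1 of the 7 with a negative change and did not pass either. Matn1 and Ibsp lay below the 25th percentile throughout. Immediate early and stress genes, which dissection can raise, had 0 of 10 past the threshold, with sums of 13.96 to 14.74 against 13.72 to 14.51. On labelled-mutant arrays 1, 2 and 3 this sum differed from the control mean by 0.13, -0.55 and -0.66, so that array 1 was the highest. Among the labelled-control arrays it was highest on array 2, as was Tnc but not Postn. The part of these genes in the members' values was not tested.

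**Figure D3:**
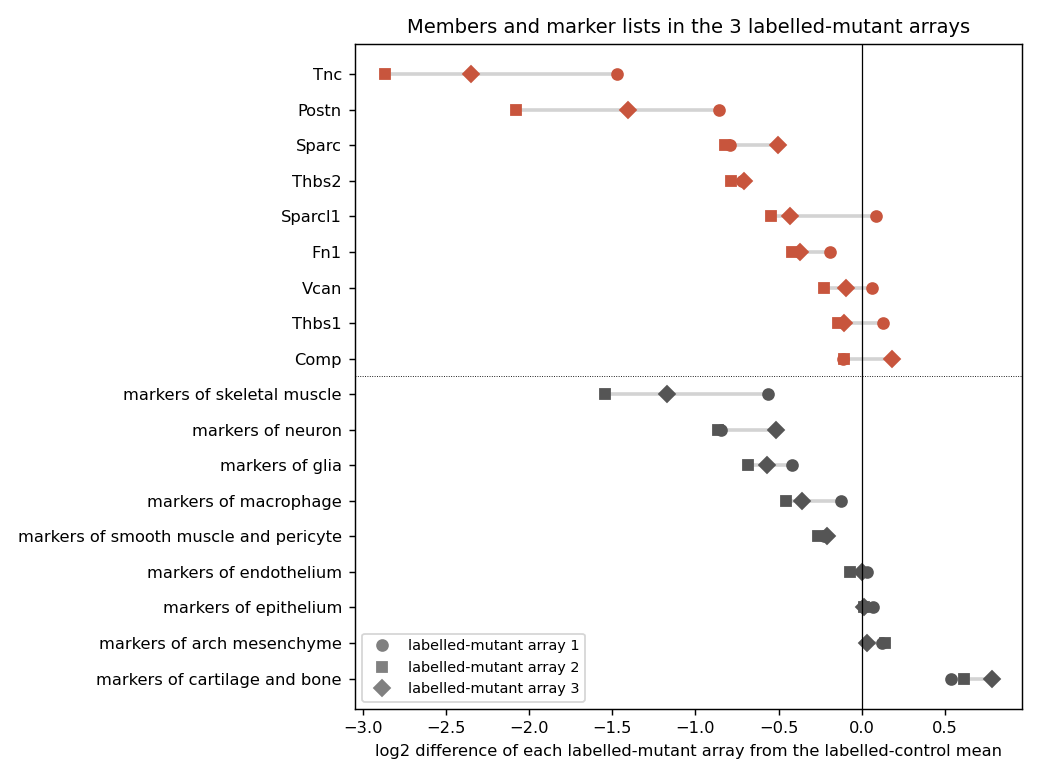
Log2 difference of each of the 3 labelled-mutant arrays from the labelled-control mean, for the 9 genes (red) and for the summed signal of 9 marker lists (dark grey). Symbols mark the array. Tnc, Postn and the skeletal muscle markers spread widely with array 1 nearest to 0, while the arrays of Thbs2 lie together near -0.7.

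The genes whose centred values over the 6 arrays lay nearest to each falling member were found among 16322 genes by Euclidean distance on the log2 scale. For Tnc they were Myog (distance 0.46), the skeletal muscle regulator, and Parp12 (0.52), an interferon-inducible ADP-ribosyltransferase. Myog read 7.88, 8.54 and 8.38 against 6.79, 5.15 and 6.12. For Postn they were Meox2 (0.46), a homeobox gene of limb muscle and vessels, and the synaptotagmin gene Syt16 (0.46). Meox2 itself did not pass (limma, adjusted p = 0.0583). For Sparc they were Tshz2 (0.18), a zinc-finger gene, and Gatm (0.22), a creatine synthesis enzyme, and for Thbs2 the receptor tyrosine kinase Met (0.14) and the sarcoglycan Sgcb (0.14). Likeness over 6 arrays in 2 groups mostly reflects a like difference between the groups.

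Of 26 other matricellular and related glycoproteins measured, 7 were lower, 2 higher and 17 did not pass, with a median change of -0.10 against 0.02 over all genes. The 3 with the largest moderated t were Ccn4, a Wnt-induced CCN protein (-1.47, standard error 0.16), Fstl1, a follistatin-like member of the Sparc family (-0.67, 0.08), and Efemp1, a fibulin (-1.42, 0.18), with limma adjusted p = 0.00186, 0.00206 and 0.00339. The CCN genes did not move together. Ccn2, the connective tissue growth factor induced by TGF-beta and Yap, rose by 1.07 from 8.78 ± 0.49 to 9.85 ± 0.26 (limma, adjusted p = 0.0324). That call was lost without labelled-control array 1 or any 1 of the 3 labelled-mutant arrays, with trend and robust settings and with floored signals (limma, adjusted p from 0.0514 to 0.161). Ccn3 changed by -0.47 (limma, adjusted p = 0.0256) at signals near the 25th percentile, and lost its call in 7 of 12 alternatives. Ccn1 changed by -0.15 and did not pass. The Sparc-family genes Smoc1 and Smoc2 differed in direction, at 0.65 and -0.86 (adjusted p = 0.00384 and 0.0291 with limma). Smoc1 passed in all 13 alternatives. Smoc2 lost its call with averaged probe sets, with floored signals, and without labelled-control array 2 or 3 or any 1 labelled-mutant array (adjusted p from 0.0602 to 0.148 with limma). The remaining thrombospondins did not pass, at -0.43 for Thbs4 and 0.16 for Thbs3, nor did the tenascins Tnn (0.07) and Tnxb (0.09). The CCN genes, Smoc1, Smoc2 and the last 4 genes were chosen for mention after their values were seen.

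Of 20 genes of the versican and hyaluronan matrix, 5 were lower, 1 higher and 14 did not pass, with a median of 0.02. Of the Adamts proteases listed for cutting versican, 3 of 6 fell while Vcan did not pass. Adamts20 changed by -1.08 (standard error 0.15) and Adamts9 by -0.99 (0.12), with limma adjusted p = 0.00535 and 0.00274. Adamts15 read 7.80 ± 0.25 against 6.80 ± 0.26 (limma, adjusted p = 0.00905). The hyaluronan synthase gene Has2 fell by 0.56 and the link protein gene Hapln1 rose by 0.68, both chosen for mention after their values were seen. Both calls were lost without labelled-control array 2 or labelled-mutant array 3, and that of Has2 also without labelled-mutant array 2 (limma, adjusted p from 0.0535 to 0.08).

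Among 24 receptors, 4 were lower, 1 higher and 19 did not pass, with a median of -0.07. The integrin genes that bind these ligands did not pass, with Itgav at -0.05, Itgb1 at -0.29, Itgb3 at -0.41, Itga5 at 0.02, Itga8 at 0.12 and Itga9 at -0.15. Cd47, a thrombospondin receptor, had a change of 0.33 that did not pass either. The integrins and Cd47 were picked for mention after their values were seen. The 3 with the largest moderated t were Cacna2d1, a calcium channel subunit that binds thrombospondins (-0.74), the collagen receptor Ddr1 (-0.54) and the growth factor receptor Egfr (-0.63). With all probe sets of a gene averaged, these 3 no longer passed, at -0.31, -0.18 and -0.08 (limma, adjusted p = 0.0838, 0.191 and 0.639). Ddr1 and Egfr did not pass without labelled-mutant array 2 or 3 either, nor did Egfr without any 1 labelled-control array.

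The genes of collagen fibres and matrix assembly had the highest share of falls among the 5 matrix and regulator lists. Of 14 measured, 8 were lower, 0 higher and 6 not past, with a median of -0.58. Over all genes 4.30% were lower and 1.23% higher. The lists were chosen with earlier results known, so nothing is read from this share. The collagen list holds the fibrillar collagens to which Sparc, periostin and thrombospondin-2 bind. Col3a1 fell by 0.64 from 13.47 ± 0.06 to 12.83 ± 0.09, the collagen cross-linking enzyme gene Lox by 1.39 from 9.24 ± 0.22 to 7.86 ± 0.36, and the procollagen protease gene Bmp1 by 0.53 (limma, adjusted p = 0.00328, 0.00377 and 0.0038). Bmp1 did not pass with its probe sets averaged, at -0.35 (limma, adjusted p = 0.068). Lum, the collagen-binding proteoglycan lumican, fell by 1.68 and was named after its value was seen. Its call was lost without labelled-control array 2 or labelled-mutant array 2 or 3 (limma, adjusted p from 0.0582 to 0.0674).

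Among 27 known regulators of matricellular genes, 6 were lower, 0 higher and 21 did not pass, with a median of -0.14. Ets1, a transcription factor of crest and vessels, fell by 0.62, Ltbp1, which tethers latent TGF-beta to the matrix, by 0.61, and the ligand gene Bmp2 fell by 1.49 (limma, adjusted p = 0.00379, 0.0101 and 0.0112). With its probe sets averaged, Ltbp1 did not pass, at -0.26 (limma, adjusted p = 0.102). Without labelled-mutant array 3 neither Ltbp1 nor Bmp2 passed (limma, adjusted p = 0.0564 and 0.0503), nor did Bmp2 without labelled-control array 2 (0.0577). In the TGF-beta branch, chosen for mention after the values were seen, Tgfb2 fell by 0.88 and Tgfbr2 by 0.56, while Tgfb1 (-0.14), Tgfb3 (-0.41) and Tgfbr1 (0.05) did not pass. Nor did Tgfbr2 pass with averaged probe sets, at -0.13 (limma, adjusted p = 0.399). Tgfb2 did not pass without any 1 labelled-control array or labelled-mutant array 3, and Tgfbr2 did not without labelled-control array 2 or 3 or labelled-mutant array 2 or 3 (limma, adjusted p from 0.0687 to 0.155). Under the replicate block neither passed (0.0622 and 0.0965). Twist1, a regulator of Postn, had a change of -0.20 and the mesenchymal homeobox gene Prrx1 one of 0.20, and neither passed. Both also stand in the arch mesenchyme list and were picked for mention after their values were seen.

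Of the 34 genes of these 5 lists past the threshold, 5 still passed with floored signals (Fstl1, Col3a1, Bmp1, Ets1 and Smoc1) and 13 without labelled-mutant array 3. With averaged probe sets 21 passed, and under a replicate block 26 did. None of the 34 changed direction under any alternative tried. Whether these lists differ from the members or from each other was not tested.

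**Figure D4:**
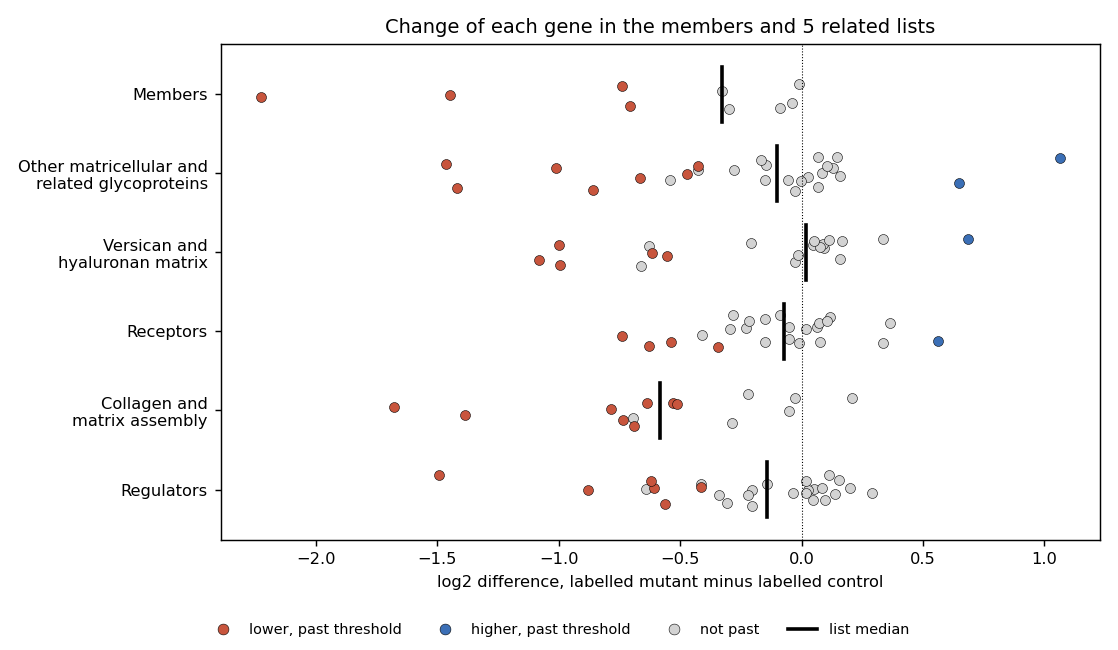
Log2 difference (labelled mutant minus labelled control) of each measured gene among the 9 members and 5 related lists. Red points were lower and blue points higher past the threshold, grey points did not pass, and black bars are list medians. Collagen and matrix assembly genes have a median of -0.58, and the other 4 lists have medians between -0.14 and 0.02.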

How the data were processed

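Total RNA of single branchial arches was biotin-labelled and hybridised to 1-colour arrays, per the labels' protocols. The deposited table gives each probe set a log2 value on every array. The scale was inferred from the values (2.63 to 14.68), and the arrays shared 1 distribution (median 5.81), so the authors had normalized them together. For software, background correction and genome build, the sources used here say nothing, and detection calls were not used. Probe sets were named by the platform annotation of 2016 (34958 with 1 symbol, 932 with several, 9211 with none).

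Each gene's brightest probe set was fitted with limma 3.58.1 (R 4.3.3), comparing the 2 labels with no covariate and a two-sided test, and p-values were adjusted by Benjamini-Hochberg over 18194 genes, and a second fit covered all 45101 probe sets. Intervals are limma's moderated 95% intervals. The procedure was tested on simulated data. Named genes are the members, the 3 of each list with the largest moderated t, the 2 nearest patterns of each falling member and label checks, with exceptions marked. Genes of the cell type marker lists were named after their values were seen. The members and lists were chosen with earlier results of these data known. Of list members without a single-symbol probe set nothing was analysed here. Alternatives were a replicate block, further quantile normalization, median centring, the mean of probe sets, a floor at the 20th percentile, leaving out dim genes, trend with robust settings, and leaving out each array. The labels call the arrays biological replicates. Same-numbered arrays deviated from their group means with correlations of -0.21, -0.12 and -0.07, so the numbers were not taken as pairs.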

Additional observations from a re-analysis of the deposited data

How the results depend on the processing

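The count of 4 members called lower was unchanged under a replicate block, quantile normalization, median centring, the mean of probe sets, leaving out dim genes and trend with robust settings, and the count of members called higher was 0 under each alternative. With signals floored at the 20th percentile 1 member passed (Thbs2), and leaving out single arrays gave 2 to 4 members. The count of all genes called was 1007, and it was 657 under the replicate block, 329 with the floor and 435 to 1021 when single arrays were left out. The count of member probe sets called was 7, and it was 4 under the replicate block, 1 with the floor and 2 to 7 when single arrays were left out. The replicate numbers did not pair the arrays in the labels or in the deviations. With the floor the gene-level changes of Tnc, Postn and Sparc stayed the same, while their standard errors rose to 0.42, 0.33 and 0.16. The cause of the losses was not tested, except that fits without an array rest on fewer samples. None of the called changes turned in direction. Dim signals limit Comp, Thbs2, the dim probe sets of Vcan and the second probe set of Tnc.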
